A study of Mus musculus with 6 samples.

Results

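The 10 genes described here encode transcription factors of the Sox family other than Sox2, Sox9 and Sox10: the SoxB genes Sox1, Sox3 and Sox21, the SoxC genes Sox4, Sox11 and Sox12, the SoxD genes Sox5, Sox6 and Sox13, and the SoxE gene Sox8. They were chosen by gene symbol from a deposited table of 17920 genes, with no measured value in the rule, and all 10 were listed. The cells came from mouse cortex at E13.5 (E stands for embryonic day), were cultured, infected with a lentivirus carrying a short hairpin RNA (shRNA), and kept in puromycin, which kills cells without the virus. Of the 6 libraries, 3 came from cells with a control hairpin (called WT) and 3 from cells with a hairpin against Ybx1 (called KD). Ybx1 encodes an RNA-binding protein that reads 5-methylcytosine in mRNA. The WT and KD cells shared infection and selection, and the sources used here do not say which of 2 Ybx1 hairpins was used or give a strain. The labels name brain as the tissue and the design text of the series mentions deletion of Ybx1, while according to the methods the gene was knocked down in culture. The study describes the replicates as independent experiments.

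Sox proteins bind the minor groove of DNA through a high-mobility-group box and act mostly together with partner factors, among them the POU proteins of the Pou3f group. SoxB1 proteins maintain neural progenitors, whereas Sox21, of the B2 subgroup, counteracts them. SoxC proteins act in committed precursors and young neurons, SoxD proteins have no activation domain of their own and work through partners, and SoxE proteins are best known in glia. The comparison asked how the transcript levels of these factors differed between WT and KD cells.

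Library totals lay between 16294635 and 16497505 estimated counts. Of the listed genes, 13669 passed the filter on low counts, all 10 Sox genes among them. Levels are given as CPM, the counts scaled to 1000000 per library with TMM factors, and means carry the SD over n = 3 libraries. A log2 change is the fitted log2 fold change of KD against WT. The quasi-likelihood F-test of edgeR gave the p values, adjusted over all genes tested after Benjamini and Hochberg, unless another test is named. Ybx1 itself was at 618, 615 and 653 CPM in WT replicates 1, 2 and 3 and at 98.3, 92.2 and 159 CPM in KD replicates 1, 2 and 3, a log2 change of -2.43 (SE 0.18; adjusted p = 1.8e-04). Every KD library was below every WT library, and KD replicate 3 kept more Ybx1 than the other KD libraries. The libraries numbered alike in WT and KD deviated from their group means together, so the fit was repeated with the replicate number as a blocking factor. Its value is given beside the Sox genes, and for the other genes named, where it changed a call.

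Of the Sox genes, 4 rose in KD, namely Sox1, Sox21, Sox4 and Sox11, by between 1.25-fold and 1.34-fold. None of the 10 fell past the threshold by edgeR or by DESeq2, and 1, Sox12, was lower at an unadjusted p of 0.0461. Among all genes tested, 12% passed higher in KD and 11.9% passed lower, 24% in either direction. The median log2 fold change was 0.18 over the 10 genes and 0.00 over all genes tested, and by subgroup it was 0.40 for SoxB and 0.33 for SoxC, 0.06 for SoxD and -0.06 for Sox8, the only SoxE gene here. With the replicate block, Sox5 passed too, which made 5 higher and none lower, against 18.6% of all genes called higher and 18.1% called lower in that fit. The number was smaller when libraries were left out, as were the calls over all genes, of which 1646 were higher with all 6 libraries. Without WT replicate 2, 1 of the 10 was called higher, beside 779 of 13791 genes tested. Without KD replicate 1, 2 of the 10 were called higher, beside 1098 of 13798 genes tested. With both libraries numbered 2 left out none was, and the calls over all genes fell to 135 higher and 93 lower. RNA was taken from all cells together, so more cells of one type and more transcript per cell cannot be told apart.

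The 10 genes differed widely in abundance. On deposited TPM, a unit that also divides by transcript length, Sox4 averaged 332 ± 29.6 in WT and 445 ± 26.1 in KD, and only 2.5% of the listed genes were above it in WT. Sox12 averaged 108 ± 6.94 TPM in WT and Sox11 averaged 78.4 ± 8.43 TPM. In WT these 3 SoxC genes did not overlap each other in any library, whereas in KD Sox12 (103 ± 1.21 TPM) and Sox11 (102 ± 10 TPM) did. Below them in WT came Sox1 at 33.5, Sox5 at 31.2, Sox8 at 26.3 and Sox6 at 25.5 TPM, neighbours whose libraries overlapped, then Sox21 at 20 TPM and Sox3 at 17.9 TPM, which overlapped each other. Sox13 was the lowest, at 2.82 TPM in WT and 3.01 TPM in KD, on 63 to 96 estimated counts per library. In KD the order was alike except that Sox21, at 27.5 TPM, stood beside Sox8 and Sox6, from which its libraries did not separate.

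**Figure D1:**
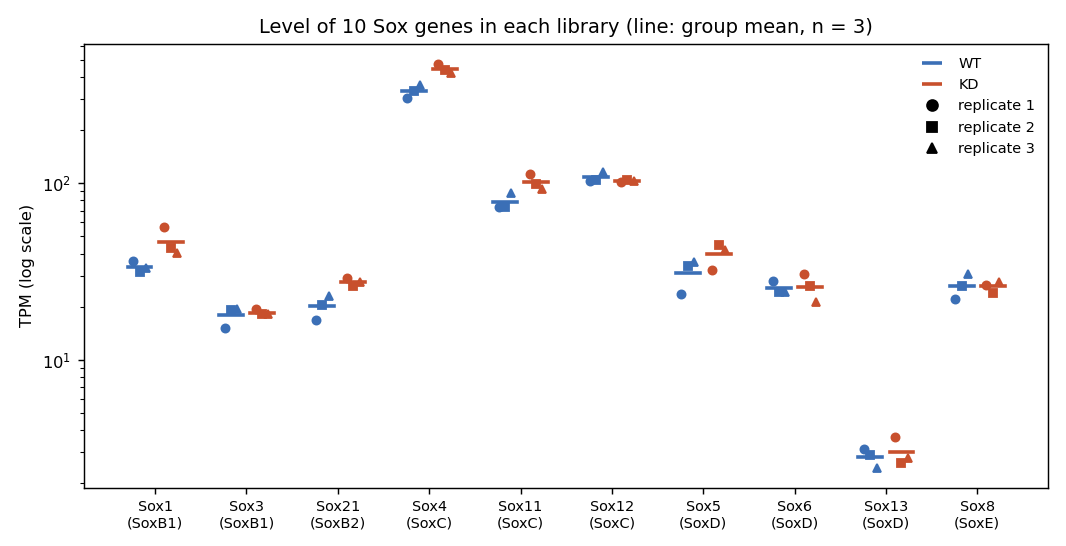
TPM on a log scale for each of the 10 Sox genes in every library, with blue for WT, orange for KD, symbols for the replicate number and lines for group means (n = 3). Sox4 lies above the other genes in all libraries and Sox13 below them, and the KD libraries of Sox1, Sox21, Sox4 and Sox11 all lie above the WT libraries of the same gene.

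Ybx1 belongs to the Y-box binding proteins, named after the Y-box, a DNA element that holds the CCAAT pentamer in reverse, so the promoters of the Sox genes were searched for these letters. RefSeq promoter entries (GRCm38.p6, 300 bases from 250 before to 50 after a start site) were matched for 9 of the 10 genes, 14 promoters in all, 6 of them of Sox6. Sox3 had no entry. CCAAT, or ATTGG on the other strand, was found in 7 of the 14 promoters, those of Sox1, Sox11, Sox12 and Sox4 and 3 of the Sox6 promoters. Of all 32851 promoters of that length, 37.4% held it. The matches in the SoxC promoters and the single match of Sox1 are shown, since these genes include 3 of the 4 that rose and the 1 that was lower in all KD libraries. Each is printed 5′ to 3′ on the strand of its gene, with the pentamer in capitals.
Sox1, chr8:12395270-12395298, plus strand: tgggttttcaacCCAATcgttaatcattc
Sox11, chr12:27342762-27342790, minus strand: tcgggaccagccATTGGctggtgggagta
Sox12, chr2:152398233-152398261, minus strand: aagcaaccagcgATTGGgagatgcaaatg
Sox4, chr13:28953691-28953719, minus strand: gcgcgaggcggaATTGGggtctgctctaa
Sox4, chr13:28953730-28953758, minus strand: ttacagcggctgATTGGctgtctgagaaa
Sox4, chr13:28953787-28953815, minus strand: tcgggttccaagCCAATgggaaggacggg
Sox4, chr13:28953854-28953882, minus strand: tttgctctgtaaATTGGaatgaggtcaga
The 4 pentamers of Sox4 lay at -8, -47, -104 and -171 bases from the start site, that of Sox11 at -60, that of Sox12 at -203 and that of Sox1 at -237, counted to the first base printed in capitals. The Sox1 pentamer lay just before the start of Sox1 in GENCODE, whose gene begins upstream of the RefSeq start site used. GENCODE also begins Sox4 upstream of the RefSeq start site, and the Sox4 pentamer at -8 lies inside the gene as GENCODE gives it. Sox21, which rose, had no match in its window, and Sox12, which did not rise, had 1. Sox6, whose log2 fold change was 0.00, had 1, 4 and 1 matches in 3 of its promoters, which are not printed. A match of 5 letters is a description and no site of binding. The study found Ybx1 mostly in the cytoplasm of cultured cortical progenitors and calls a transcriptional function of it possibly questionable. ACAAT, a core that Sox proteins can bind, or ATTGT on the other strand, was in 4 of the 14 promoters, all of Sox5 or Sox6, and in 31% of all promoters. The Sox5 match is shown because Sox5 passed with the block, with the core in capitals. This promoter entry lies inside the gene as GENCODE gives it.
Sox5, chr6:143947244-143947272, minus strand: gactgaagagacACAATggttgtgaatac

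SoxB1 genes mark dividing neural progenitors. Sox1 (Entrez Gene 20664, chr8:12395295-12400126, plus strand, GRCm38) has a single exon. It was at 68.1, 60.2 and 61.3 CPM in WT replicates 1, 2 and 3 and at 102, 77.8 and 74.8 CPM in KD. All KD libraries were above all WT libraries, and KD replicate 1 stood above the other KD libraries. The mean went from 63.2 ± 4.28 to 84.8 ± 14.8 CPM, 1.34-fold, with a log2 change of 0.42 (SE 0.11; adjusted p = 0.0263). The log2 ratio of KD over the same-numbered WT library was 0.58, 0.37 and 0.29 in replicates 1, 2 and 3. Without WT replicate 2 the adjusted p was 0.0977, and without WT replicate 3 it was 0.0616. Sox1ot, a longer transcript on the same strand, and the microRNA gene Gm25239 overlap Sox1 in the annotation and were not listed in the table, so reads from them could be counted with it.

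Sox3, the other SoxB1 gene here, is also a single-exon gene (Entrez Gene 20675, chrX:60891366-60893430, minus strand). Its WT libraries held 223, 279 and 275 estimated counts and its KD libraries 274, 252 and 262, with means of 16 ± 2.1 and 15.9 ± 0.548 CPM. The KD libraries all lay within the range of the WT libraries, and WT replicate 1 was the lowest. The log2 fold change was 0.00 (SE 0.11; adjusted p = 0.981), and the sign differed between pairs, 0.28 in replicate 1 against -0.16 and -0.11 in replicates 2 and 3. The TPM ratio of Sox3 over Sox1 was 0.42, 0.605 and 0.59 in WT and 0.342, 0.418 and 0.449 in KD, a log2 difference of -0.41 (two-sided exact permutation test, p = 0.2, adjusted over 5 ratios p = 0.5). The ranges of the ratio overlapped. With 3 libraries against 3 the smallest p this test allows is 0.1.

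Sox21, the SoxB2 gene, encodes a repressor that opposes SoxB1 proteins at shared targets. It is a single-exon gene (Entrez Gene 223227, chr14:118233232-118237030, minus strand) and was at 29.5, 36.5 and 40 CPM in WT and at 48.8, 43.9 and 47.5 CPM in KD. The KD libraries did not overlap the WT libraries, and the WT libraries were the more widely spread. From 35.3 ± 5.36 to 46.8 ± 2.53 CPM it was 1.32-fold higher, with a log2 change of 0.40 (SE 0.10; adjusted p = 0.0229). Its pair ratios on the log2 scale were 0.73, 0.27 and 0.25. The adjusted p was 0.0642 with WT replicate 2 left out, 0.0605 with KD replicate 1 left out and 0.0564 with KD replicate 3 left out. The noncoding gene Gm4675 runs over Sox21 on the opposite strand and was not in the table, and whether the counting used strand is not given in the sources used here.

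SoxC genes are switched on as cells leave the cycle, and Sox4 and Sox11 are the leading members in young neurons and intermediate progenitors. Sox4 (Entrez Gene 20677, chr13:28948919-28953713, minus strand, 1 exon) was at 686, 758 and 808 CPM in WT and at 1020, 949 and 937 CPM in KD. All KD libraries were above the WT libraries, and the libraries with the lowest WT value and the highest KD value were both replicate 1. The mean went from 750 ± 61.6 to 970 ± 46.9 CPM, 1.29-fold, with a log2 change of 0.37 (SE 0.06; adjusted p = 0.00507). The pair ratios were 0.58, 0.32 and 0.21 on the log2 scale. Sox4 was the one gene of the 10 that passed with each of the 6 libraries left out in turn, with adjusted p values up to 0.0261, and it did not pass with both libraries numbered 2 left out (adjusted p = 0.087). Gm26735, on the opposite strand, covers part of Sox4 and was not listed.

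Sox11 (Entrez Gene 20666, chr12:27334264-27342574, minus strand, 1 exon) was at 302, 307 and 357 CPM in WT and at 444, 389 and 377 CPM in KD. The groups did not overlap, but KD replicate 3 exceeded WT replicate 3 only slightly, and the pair ratios were 0.56, 0.34 and 0.08 on the log2 scale. From 322 ± 30.9 to 403 ± 35.5 CPM it was 1.25-fold higher, with a log2 change of 0.33 (SE 0.08; adjusted p = 0.0211). This was the least firm of the 4 rises. The adjusted p was 0.0579 without WT replicate 1, 0.0865 without WT replicate 2, 0.0553 without KD replicate 1 and 0.0507 with KD replicate 2 left out, and it was 0.0962 with both libraries numbered 1 left out.

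Sox12, the third SoxC gene and a weaker activator than its relatives, had a value of the opposite sign. It (Entrez Gene 20667, chr2:152393611-152398063, minus strand) was at 216, 221 and 239 CPM in WT and at 204, 208 and 211 CPM in KD. Every KD library was below every WT library, by a small margin. The means were 225 ± 12 and 208 ± 3.42 CPM, with a log2 change of -0.12 (SE 0.05; adjusted p = 0.125) that did not pass, nor did it with the replicate block (adjusted p = 0.0645). KD libraries all below WT libraries were found for 20.6% of all genes tested and KD libraries all above for 21%, against 1 and 4 of the 10 Sox genes.

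The make-up of the SoxC transcripts follows from the levels of the 3 genes, and their shares were not tested on their own. Summed over the 3 genes, SoxC came to 480.1, 509.6 and 566.6 TPM in WT and to 688.5, 643.6 and 618.0 TPM in KD, 1.25 times the WT mean. Sox12 took 21.6%, 20.5% and 20.5% of this sum in WT and 14.9%, 16.3% and 16.7% in KD. Sox4 took 63.1%, 65.0% and 63.9% in WT and 68.7%, 68.3% and 68.2% in KD. The shares of Sox12 and of Sox4 did not overlap between groups, whereas that of Sox11 did, between 14.5% and 15.6% in WT and between 15.1% and 16.4% in KD. The TPM ratio of Sox12 over Sox11 was 1.41, 1.42 and 1.32 in WT and 0.906, 1.05 and 1.1 in KD, a log2 difference of -0.44. The exact permutation p was 0.1, the smallest that the design allows, and 0.5 after adjustment over the 5 ratios. The ratio of Sox4 over Sox11 differed by 0.05 on the log2 scale (exact permutation p = 0.3, adjusted p = 0.5), with WT libraries between 4.11 and 4.49 and KD libraries between 4.19 and 4.52.

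**Figure D2:**
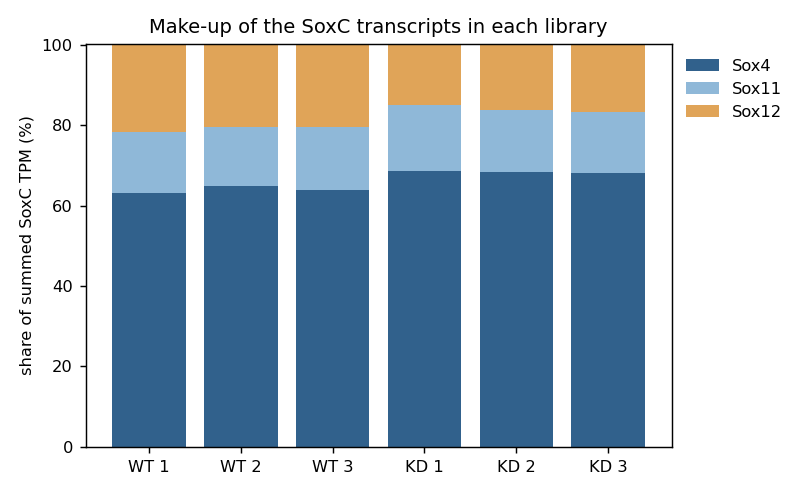
Share of each SoxC gene in the summed SoxC TPM of a library, in percent, with 1 stacked bar per library. The Sox12 part, at the top, is between 20.5% and 21.6% in the WT bars and between 14.9% and 16.7% in the KD bars.

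SoxD genes have many exons and long introns, whereas the SoxB genes, Sox4 and Sox11 have a single exon and Sox12 has up to 2. Sox5, which controls the timing of deep-layer corticofugal neurons, spans chr6:143828425-144781977 on the minus strand (Entrez Gene 20678). It was at 71.8, 102 and 102 CPM in WT and at 95.8, 123 and 122 CPM in KD. The groups overlapped because replicate 1 was low in both, while within each pair the KD library was higher, by 0.42, 0.27 and 0.26 on the log2 scale. The log2 fold change was 0.31 (SE 0.14; adjusted p = 0.145) without the block and 0.31 (SE 0.05; adjusted p = 3.8e-04) with it, so the call rests on the pairing. With both libraries numbered 1 left out, an alternative added after the data were seen, Sox5 passed without a block at a log2 change of 0.27 (adjusted p = 0.022). All 3 pairs were higher in KD for 31% of all genes tested.

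A low value in replicate 1 of both groups was also seen for Fezf2. Fezf2, a regulator of corticofugal neurons, was at 48.9, 86.8 and 95.8 CPM in WT and at 48.3, 83.3 and 82 CPM in KD. It did not pass the test of KD against WT, with a log2 change of -0.12 and an adjusted p of 0.779. The part of such neurons in the Sox5 values was not tested.

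Sox6, which in the forebrain is known from migrating interneurons among other cells, ran opposite to Sox5 over the replicates. It (Entrez Gene 20679, chr7:115470872-116038796, minus strand) was at 112, 97.6 and 94 CPM in WT and at 117, 103 and 83.5 CPM in KD. Replicate 1 was the highest and replicate 3 the lowest in both groups, and the groups overlapped throughout. The log2 fold change was 0.00 (SE 0.12; adjusted p = 0.987). Its estimated counts had a fractional part in 5 of the 6 libraries, which arises where reads are divided between genes that share sequence, and the error this adds was not measured.

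Of the 9 markers of the GABAergic lineage, 5 had the replicate order of Sox6 in both groups, with replicate 1 above 2 and 2 above 3, and all 9 were highest in replicate 1 of both groups. Libraries numbered alike deviated together over all genes, and the share of all genes tested with either order was not computed. Lhx6, Gad1 and Sst, of interneurons, were among the 5 and were picked after their values were seen. Lhx6 was at 226, 172 and 138 CPM in WT and at 217, 167 and 125 CPM in KD, and Gad1 at 401, 336 and 238 CPM in WT and at 324, 275 and 220 CPM in KD. Sst was at 852, 608 and 452 CPM in WT and at 537, 438 and 328 CPM in KD. The 9 markers together ranged from 1110 to 1860 CPM in WT and from 1010 to 1570 CPM in KD. Of them 1 passed, higher in KD, against 12% of all genes tested. With the block, 2 of the 9 rose, Dlx2 (1.22 on the log2 scale; adjusted p = 1.1e-07) and Dlx1 (0.35; adjusted p = 1.1e-04). The 2 that fell were Sst (-0.53; adjusted p = 2.3e-06) and Gad1 (-0.24; adjusted p = 0.00165). In that fit 18.6% of all genes tested rose and 18.1% fell, so these counts are near those shares. The part of these cells in the Sox6 values was not tested. The TPM ratio of Sox5 over Sox6 was 0.846, 1.4 and 1.48 in WT and 1.06, 1.71 and 1.98 in KD, a log2 difference of 0.34 (exact permutation p = 0.4, adjusted p = 0.5). It was higher in KD within each same-numbered pair (exact sign-flip permutation test, p = 0.25, the smallest that 3 pairs allow). The difference was 0.09 without WT replicate 1, 0.16 without KD replicate 3 and 0.61 without KD replicate 1.

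Sox13, the SoxD gene least expressed in these cells (Entrez Gene 20668, chr1:133382303-133424377, minus strand), was at 5.04, 4.63 and 3.92 CPM in WT and at 5.77, 3.97 and 4.42 CPM in KD. The groups overlapped, and the log2 fold change was 0.06 (SE 0.18; adjusted p = 0.843), so a change of the size seen in Sox4 was less resolvable here. Its ratio over Sox6 differed by 0.07 on the log2 scale (exact permutation p = 0.7, adjusted p = 0.7). Sox8, the SoxE gene (Entrez Gene 20681, chr17:25565892-25570686, minus strand, 3 exons), is known from glial precursors. Its WT libraries were at 30.1, 36.3 and 41 CPM and its KD libraries at 34.7, 31.1 and 37 CPM, which all lay within the WT range. The log2 fold change was -0.06 (SE 0.11; adjusted p = 0.725).

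**Figure D3:**
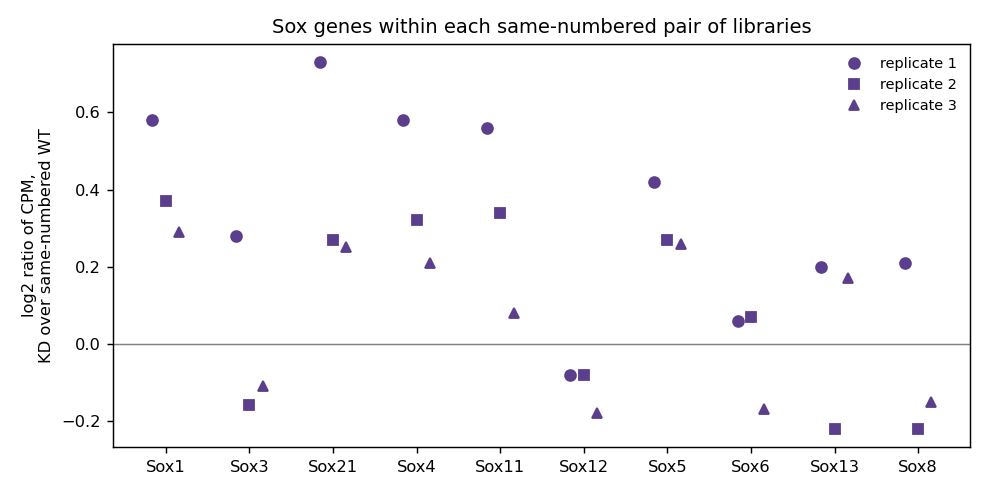
Log2 ratio of CPM in each KD library over the WT library with the same replicate number, for each of the 10 Sox genes, with a symbol for each replicate. For Sox1, Sox21, Sox4, Sox11 and Sox5 all 3 pairs are above 0 and replicate 1 has the largest ratio, for Sox12 all 3 are below 0, and for Sox3, Sox6, Sox13 and Sox8 the pairs differ in sign.

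A feature that 4 risers shared, and that the choice of genes did not use, is a transcript of 1 exon. Sox1, Sox3, Sox21, Sox4 and Sox11 count as single-exon genes in the GENCODE vM21 annotation, and 4 of these 5 rose. With these genes left out, 263 other single-exon genes were tested, of which 16 (6.08%) rose and 40 (15.2%) fell, with a median log2 fold change of -0.10 over all 268. Genes with several exons rose in 12.3% and fell in 12% of 13032. The direction in the Sox genes was not that of most single-exon genes that changed. Offsets for transcript length and GC content, added after the data were seen, kept all 4 rises, and the log2 fold change of Sox11 was then 0.23 (adjusted p = 0.0489) and that of Sox3 0.12.

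The Sox genes outside this set were few. Of 10 listed, Sox2, Sox9, Sox10, Sox18 and Sox30 passed the filter on low counts, Sox7, Sox14 and Sox15 did not, Sox17 and Sry were not analysed here, and none of those tested passed in either direction by edgeR, or by DESeq2, which gave no adjusted p for Sox18 and Sox30. By edgeR 1 was higher at an unadjusted p of 0.05 or less. Sox2, the SoxB1 factor most used as a marker of neural stem cells, was at 103, 93.8 and 94.3 CPM in WT and at 137, 105 and 99.2 CPM in KD. Its log2 fold change was 0.23 (adjusted p = 0.162), and 0.22 with the block (adjusted p = 0.0118). Sox9, of radial glia, had a log2 change of 0.26 (adjusted p = 0.0943), with an adjusted p of 0.028 under the block. Sox10, of the oligodendrocyte lineage, had -0.44 (adjusted p = 0.211) and passed lower under the block at -0.46 (adjusted p = 0.00376). With 1 library left out, Sox9 passed without WT replicate 3 (adjusted p = 0.0415), and was at 0.15 without WT replicate 1. Sox10 passed without KD replicate 3 at -0.75 (adjusted p = 0.0337) and was at -0.24 without WT replicate 3. Sox2 was at 0.08 without KD replicate 1. Sox18 and Sox30, each near 1 CPM, had log2 fold changes of 0.50 and -0.52 (adjusted p = 0.446 and 0.24).

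**Figure D4:**
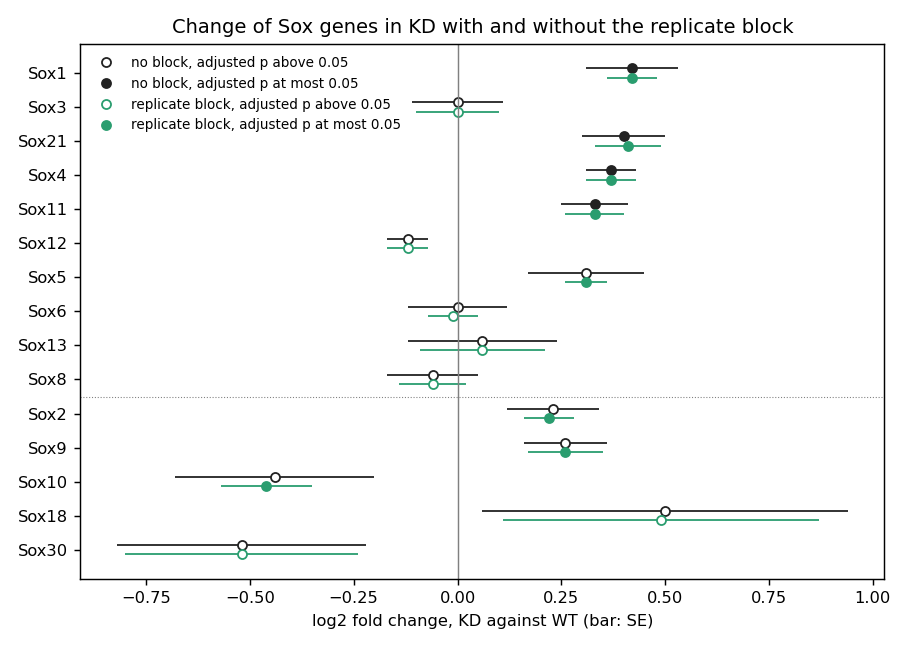
Log2 fold change of KD against WT for the 10 Sox genes, above the dotted line, and the other Sox genes tested, below it, in black without and in green with the replicate block. Bars are 1 SE and filled circles have an adjusted p of at most 0.05, as Sox1, Sox21, Sox4 and Sox11 have in both fits and Sox5, Sox2, Sox9 and Sox10 only with the block.

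Genes known as partners or targets of these factors were then counted, from lists written by name. Earlier results of these data were known when the lists were written, so the counts are a description. Of 16 partner and target genes of SoxB1, 9 rose and none fell, with a median log2 fold change of 0.32. Beside this and the lists below, 12% of all genes tested were higher and 11.9% lower, with a median of 0.00. At an unadjusted p of 0.05 or less 11 of the 16 were higher and none lower. Among the 6 most abundant, Pou3f3, a POU partner of SoxB1 proteins, went from 164 ± 3.47 to 206 ± 17.6 CPM, a log2 change of 0.33 (adjusted p = 0.00738). Fabp7, Vim, Nes, Notch1 and Egfr had log2 fold changes of 0.04, 0.21, 0.16, 0.31 and 0.19 and did not pass (adjusted p between 0.0518 and 0.601). With the block, Vim (adjusted p = 0.0109), Notch1 (adjusted p = 0.0139) and Egfr (adjusted p = 0.0249) passed. Chosen after their values were seen, the POU genes Pou3f1 (0.74; adjusted p = 0.007) and Pou3f4 (0.80; adjusted p = 0.00514) rose as well, as did Gli3, a transcriptional effector of hedgehog signalling, by 1.03 on the log2 scale (adjusted p = 0.0031). With the block, 13 of the 16 rose, against 18.6% of all genes tested.

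Of 12 partner and target genes of SoxC, 11 were tested, 6 rose and none fell, with a median of 0.49. By unadjusted p, 7 were higher and 1 was lower. Dcx, a microtubule protein of migrating neurons, went from 650 ± 36.6 to 797 ± 25.3 CPM, a log2 change of 0.29 (adjusted p = 0.00518). Pou3f2, a POU partner that is also in the SoxB1 list, went from 37.5 ± 3.45 to 70.3 ± 12.7 CPM, a log2 change of 0.91 (adjusted p = 0.00186). The cytoskeletal genes Stmn1, Map2 and Tubb3 had log2 fold changes of 0.09, 0.01 and -0.06 and did not pass. Elavl3, a neuronal RNA-binding protein gene, was at -0.15 (adjusted p = 0.0773) and passed lower with the block (adjusted p = 0.0197). Tubb3, regarded as a direct target of Sox4 and Sox11, had an adjusted p of 0.699. Among genes chosen after their values were seen, the proneural factor Neurog2 (1.58; adjusted p = 9.0e-04), the intermediate progenitor factors Insm1 (1.42; adjusted p = 7.0e-04) and Eomes (1.57; adjusted p = 0.00813) and Neurod1 (0.90; adjusted p = 0.00371) rose.

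Of 11 partner and target genes of SoxD, 3 rose and none fell, with a median of 0.14. By unadjusted p, 4 were higher and 1 was lower. Nr2f1, a nuclear receptor that patterns the cortex, went from 140 ± 2.62 to 173 ± 11.2 CPM, a log2 change of 0.30 (adjusted p = 0.00651). The corepressors Hdac1 (0.35; adjusted p = 0.0111) and Ctbp2 (0.34; adjusted p = 0.0176) were the other two. Ctbp1, Tbr1 and Bcl11b, a corepressor and 2 deep-layer factors, had log2 fold changes of 0.00, 0.14 and 0.16 and did not pass. With the block, Tbr1 (adjusted p = 0.0483) and Bcl11b (adjusted p = 0.0284) passed higher, and 5 of the 11 did in all. Over the partner and target lists and the other Sox genes together, 42 of 48 genes were tested. By edgeR 17 rose and none fell, and by DESeq2 18 were higher and none lower. Of all genes tested by edgeR, 12% were higher and 11.9% lower. With the block 26 of the listed genes rose and 2 fell, against 18.6% and 18.1% of all genes tested. Without KD replicate 3, or with both libraries numbered 3 left out, 1 listed gene fell. Only 3 listed genes rose with both libraries numbered 2 left out, where 135 of all 13712 genes tested were higher and 93 lower.

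Marker lists of cell types, also written with earlier results known, showed what else moved with the Sox genes. Of 8 intermediate progenitor markers tested, 7 rose, with a median log2 fold change of 1.19, and their summed level was 94.1 to 120 CPM in WT and 199 to 237 CPM in KD. Of the 9 genes of that list, 5 were also in a partner list. Of 12 radial glia markers, 3 rose and 1 fell, with a median of 0.22 and summed levels of 1530 to 1700 CPM in WT and 1600 to 1840 CPM in KD. Of these 12, 9 were also in another list. The 3 that rose were all in the SoxB1 list counted above, and the 1 that fell was in no other list. Of 12 neuron markers, 4 of which were also in another list, 2 rose and 3 fell, with a median of 0.04. Their summed levels were 8460 to 9170 CPM in WT and 7830 to 8930 CPM in KD. With the block, 6 radial glia markers rose and 1 fell, and 4 neuron markers rose and 3 fell, against 18.6% and 18.1% of all genes tested. Of these marker lists, only that of intermediate progenitors had a summed level that did not overlap between groups. Outside the marker lists, the SoxB1 list (1470 to 1540 CPM in WT, 1670 to 1960 CPM in KD) did not overlap either. The same was so of the SoxD list (1090 to 1230 and 1260 to 1310 CPM) and the other Sox genes (173 to 185 and 186 to 231 CPM). Of all genes tested, 41.6% did not overlap between groups, Sox1, Sox21, Sox4 and Sox11 among them. The part of a changed share of intermediate progenitors in the Sox values was not tested.

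Among 8 oligodendrocyte lineage markers, 2 fell and none rose, with a median of -0.30 and summed levels of 404 to 547 CPM in WT and 346 to 447 CPM in KD, and by unadjusted p none was higher and 3 were lower. With the block, 5 fell, Sox10 among them, against 18.1% of all genes tested. Of 6 astrocyte markers, 5 were tested and none passed, with summed levels of 393 to 477 CPM in WT and 417 to 463 CPM in KD. Cells from outside the neural lineage gave little RNA. Microglia markers summed to 1.85 to 3.16 CPM in WT and 2.12 to 2.83 CPM in KD, endothelial markers to 2.18 to 3.52 CPM and 1.76 to 3.13 CPM, and neither list had a gene that passed, adjusted or not. Mesenchymal and mural markers summed to 10.3 to 13.3 CPM in WT and 13.2 to 15.7 CPM in KD, and 1 of 4 tested passed, higher in KD. No gene of the 9 marker lists was at 0 in all libraries.

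**Figure D5:**
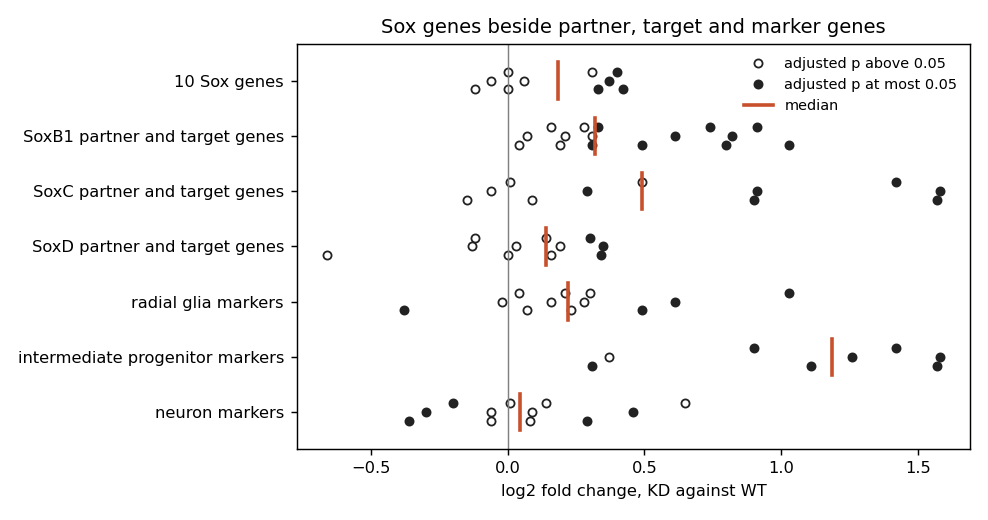
Log2 fold change of KD against WT for each gene tested in the set of 10 Sox genes, in 3 lists of Sox partner and target genes and in 3 cell type marker lists, with filled circles for an adjusted p of at most 0.05 and an orange line for the median. The medians are 0.18 for the Sox genes, 0.32, 0.49 and 0.14 for the SoxB1, SoxC and SoxD lists, and 0.22, 1.19 and 0.04 for radial glia, intermediate progenitors and neurons. A gene that is in several of these lists is drawn in each.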

How the data were processed

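Groups and replicate numbers came from the sample titles, and the control columns of the table, headed Ctrl, were assigned to the WT title of the same number. The submitters' processing notes name HISAT2 2.2.1, Bowtie2 2.4.5 and RSEM 1.3.1 and the builds GRCm38 and mm10, with no role given. The authors deposited an estimated count per gene, of which 89.3% to 89.9% were whole numbers in a library, and TPM values that they computed per library. The other 12 columns hold FPKM values of the same libraries and group averages, and were not used here.

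The estimated counts were rounded for edgeR 4.0.16 under R 4.3.3 (TMM scaling, filterByExpr with a minimum count of 10, quasi-likelihood F-test, Benjamini-Hochberg over 13669 genes, threshold 0.05). The plan had assumed whole counts, and the test was kept. SE was derived from the F statistic, as the size of the log2 change over its square root. The biological coefficient of variation was 7.69%, and 4.71% with the block. Replicates of a group differed beyond sampling noise (chi-square per degree of freedom between 4.59 and 9.05), so all 6 libraries counted separately. Deviations from the group means on log2 CPM correlated over genes at 0.35, 0.32 and 0.18 for replicates 1, 2 and 3 and at -0.28 to -0.02 for unlike numbers. All 3 exceeded 0.1, so the numbers pair the libraries. What a number marks is not given in the sources used here beyond separate experiments. The fit without the block stayed the principal one.

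The members and the 13 gene lists were chosen with earlier results of these data known. The genes named were the 10 members, Ybx1, the other Sox genes tested, and genes drawn from the up to 6 most abundant of each other list, with those said to be chosen after their values were seen, Fezf2 and the GABAergic genes singled out for their order over replicates. Alternatives were 3 other scalings, 2 other filters, DESeq2 1.42.0, limma-voom and limma-trend on log2(TPM + 1) (limma 3.58.1), the replicate block and libraries left out. Offsets for length and GC (known for 97.8% of genes) and leaving out both libraries numbered 1 or 3 were added after the data were seen. Gene positions are from GENCODE vM21 on GRCm38, and the promoters from RefSeq. A gene that the naming rule would include is not reported here.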

Additional observations from a re-analysis of the deposited data

How the results depend on the processing

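Over the 20 alternatives, the log2 fold change stayed between 0.27 and 0.51 for Sox1, 0.26 and 0.50 for Sox21, 0.27 and 0.45 for Sox4, 0.21 and 0.45 for Sox11, 0.16 and 0.42 for Sox5, and -0.15 and -0.06 for Sox12, and no member was called lower. The members called higher numbered 4, between 1 and 3 with 1 library left out, 5 with the replicate block, and 0 with both libraries numbered 2 left out. Over all genes tested the calls higher numbered 1646, 779 to 1612 with 1 library left out, 2539 with the block and 135 with both libraries numbered 2 left out. The partner, target and other Sox genes called higher numbered 17, and 14 to 19 with 1 library left out, 26 with the replicate block and 3 with both libraries numbered 2 left out. Those called lower numbered 0, and 0 to 1 with 1 library left out, 1 with both libraries numbered 3 left out, 2 with the block and 2 with offsets and the block. Among the Sox genes, the block changed the calls of Sox5, Sox2, Sox9 and Sox10 only. With 1 library left out, Sox2 ran from 0.08 to 0.32, Sox9 from 0.15 to 0.35 and Sox10 from -0.75 to -0.24. The SoxD median, 0.06, was -0.11 to 0.17 with 1 library left out, 0.18 without both numbered 2 and -0.03 without both numbered 1.

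Genes near 0 changed sign. Sox3 was at 0.02 with total count scaling, 0.00 with no filter, 0.01 with limma-voom, 0.05 on TPM, 0.08 without both libraries numbered 2, 0.05 without both numbered 3, 0.12 with offsets and 0.13 with offsets and the block, and -0.11 to 0.05 with 1 library left out. Sox6 was at 0.02 with total count scaling, 0.00 with no filter, 0.01 on TPM, 0.07 without both numbered 3, and -0.12 to 0.12 with 1 left out. Sox13 was at -0.03 without both numbered 1 and -0.11 to 0.17 with 1 left out, and Sox8 at 0.01 without both numbered 2 and -0.17 to 0.05 with 1 left out. The Sox13 over Sox6 ratio ran from -0.02 to 0.18 with 1 left out. Of all calls, 50.2% were higher in KD, 43% with upper quartile scaling, 43.1% with offsets, 57.9% with total counts and 65.9% on TPM, where the median gene shifted by 0.05. The cause of these changes was not tested. Depth limits Sox13, Sox18 and Sox30 most.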
